A study of Mus musculus with 8 samples.

Results

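The untreated baseline of the study is formed by the P19 cultures that received only the solvent DMSO and were harvested after 24 h or 48 h. P19 is an established mouse embryonal carcinoma line that behaves much like early embryonic stem cells and was kept undifferentiated here. These cultures make up 4 of the 8 libraries of the experiment, 2 at 24 h (DMSO replicates 21 and 23) and 2 at 48 h (DMSO replicates 24 and 25), chosen by the treatment and time of their labels; the replicate numbers are names from the deposited table, not hours. All cultures were wild type, grown in high-glucose medium with serum, and treated from the day after seeding, with the medium renewed daily in the 48 h cultures. The other 4 libraries came from cultures given MHY1485 (MHY), a compound sold as an mTOR activator, at 10 µM for the same times. All samples are of 1 cell line. The study's methods call the replicates biological without saying how the cultures were separated, so the p-values speak for these libraries only. The p-values of the tail fits per transcript also depend on weights by read number, so they do not measure library spread alone.

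A poly(A) tail is the stretch of adenosines added to the 3′ end of nearly every mRNA when it is made in the nucleus. It is shortened in the cytoplasm by deadenylases, and a tail bound by poly(A)-binding protein protects the message and aids its translation. Transcripts of the mitochondrial genome carry short tails made by a separate mitochondrial enzyme. Ribosomal protein mRNAs belong to the TOP class, whose 5′ end starts with a run of pyrimidines and whose translation follows mTOR activity. Nanopore direct RNA sequencing passes each native mRNA through a pore, beginning in its tail, so the time spent in the tail gives 1 length in nucleotides (nt) per molecule.

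After keeping reads whose tail estimate passed its quality tag, the DMSO libraries held 191045 (replicate 21), 275860 (replicate 23), 213673 (replicate 24) and 316546 (replicate 25) reads of nuclear transcripts, 997124 in all. The 24 h libraries were sequenced in 3 runs and the 48 h libraries in 2 others, and no run held both times, so time in culture and sequencing run cannot be told apart in any comparison below. The share of alignments with a passing tag was 84.1% and 85.02% at 24 h against 81.4% and 82.3% at 48 h, and the median speed of the RNA through the pore was 120.5 nt per second at 24 h and 115.85 nt per second at 48 h. By run it was 115.85 to 125.5 nt per second at 24 h and 115.85 nt per second in both 48 h runs. Libraries of 1 run were told apart by barcodes. Spike-in RNAs were found almost only in 1 barcode, which marked an MHY library at each time. Of spike-in reads 8.97% at 24 h (Wilson 95% interval 5.42 to 14.5%) and 9.43% at 48 h (6.79 to 12.9%) carried another barcode. At a barcode confidence of 0.9 or more these shares were 0.855% and 2.67%. The study's methods list the spike-in mix in the barcode ligation without saying which libraries got it, so such reads need not be errors. Intervals on shares cover counting error only.

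The DMSO cultures carried the markers of undifferentiated P19 cells at both times. All 12 pluripotency markers had reads, and their summed level was 4093 and 4546 RPM (reads per 1000000 nuclear reads of the library) at 24 h against 4254 and 4353 RPM at 48 h. Pou5f1, the core pluripotency factor Oct4, stood at 2607 and 2907 RPM at 24 h against 2480 and 2862 RPM at 48 h. The groups overlapped for this gene, and they overlapped for the sum of the markers too. Sox2, its partner factor, stood at 88.98 and 127 RPM at 24 h against 178 and 129.5 RPM at 48 h. Here both 48 h libraries lay above both 24 h libraries, on 17 and 35 reads against 38 and 41. For comparison, 15.1% of all transcripts tested for read count lay above in the same way. Among the neuronal markers, the neurogenic factors Neurog1 and Neurog2 and the microtubule protein Dcx had no read in any DMSO library, and of 7 fibroblast markers 3 had none (Col3a1, Lum and Postn). The summed neuronal markers ranged from 329.8 RPM in replicate 21 to 377 RPM in replicate 23, of which Stmn2, a tubulin-binding protein, made up 243 to 272 RPM. The summed fibroblast markers ranged from 9.48 to 32.8 RPM, lowest in replicate 25.

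The tails of nuclear transcripts formed a broad single hump. In replicate 21 the fullest bin of 10 nt was 70 to 80 nt, and it held 7.70% of the reads. The middle 50% of tails lay between 68.1 and 138 nt there, and 5% exceeded 206 nt. Median tails were 100.7 nt in replicate 21, 102.5 nt in replicate 23, 96.8 nt in replicate 24 and 99.3 nt in replicate 25. Tails shorter than 30 nt were rare, at 2.34% (Wilson 95% interval 2.28 to 2.41%), 2.72% (2.66 to 2.78%), 2.87% (2.80 to 2.94%) and 2.57% (2.51 to 2.62%) of reads in replicates 21, 23, 24 and 25. Tails of 30 to 90 nt made up 39.5%, 37.9%, 42.1% and 40.5%, and the remaining 55.03% to 59.4% were longer. Mitochondrially encoded transcripts, 2.91% to 3.90% of all reads with a passing tag, formed a narrow peak instead, with medians of 60.2, 61.0, 61.1 and 59.9 nt in the same order.

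**Figure D1:**
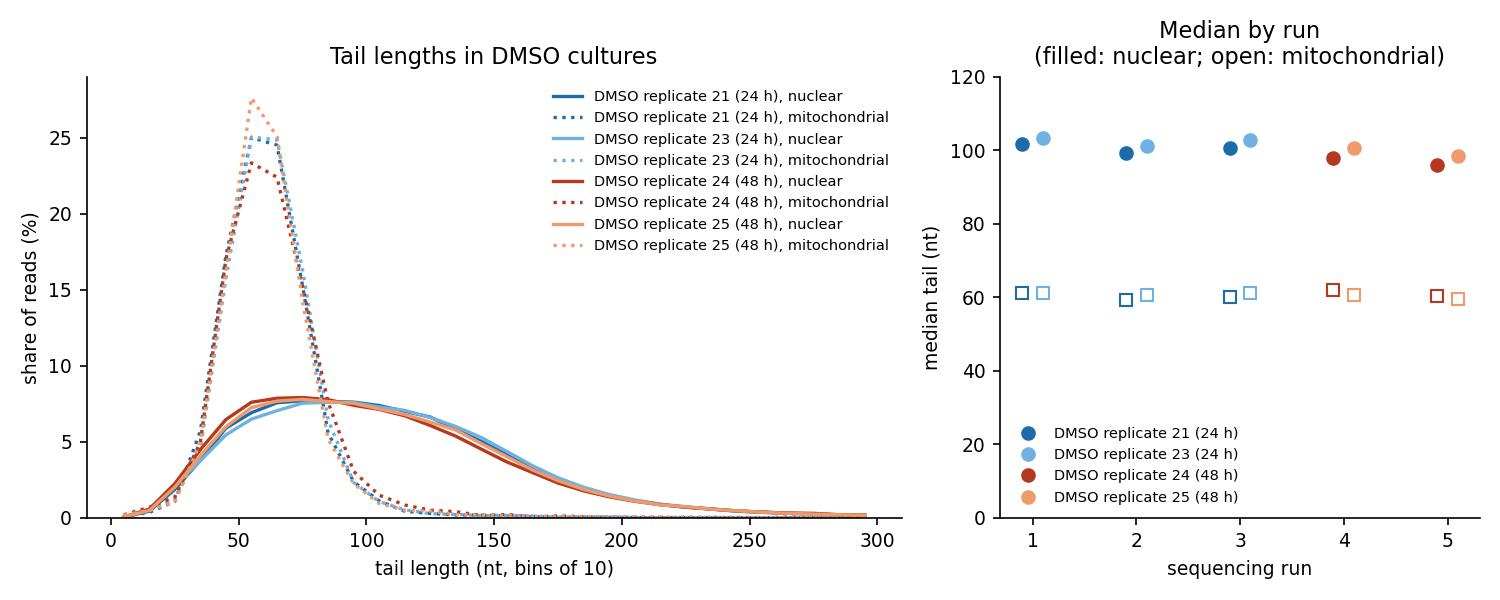
Left, share of reads (%) against tail length (nt, bins of 10 nt) in the 4 DMSO libraries, solid for nuclear and dotted for mitochondrially encoded transcripts, blue at 24 h and red at 48 h; right, the median tail (nt) of each library in each sequencing run, filled for nuclear and open for mitochondrial transcripts. The nuclear curves are broad, and the mitochondrial curves are narrow, with peaks near 60 nt.

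Transcripts differed from each other in tail length. Over the 2194 transcripts with at least 10 reads in each DMSO library, the median tail had a median of 100.2 nt, with the central 90% between 82.95 and 124 nt. Molecules of the same transcript varied more still, since the middle 50% of a transcript's own tails typically spanned 70.7 nt. For the 149 transcripts with at least 1000 reads, the 4 library medians of a transcript typically spanned 8.34 nt (23.5 nt over all 2194), and their order was much the same in every library, with Spearman correlations across transcripts of 0.856 to 0.897 for the 6 pairs of libraries. These correlations describe transcripts that share libraries and depth, and they were no higher within a time than between times. Longer transcripts had somewhat longer tails: the median was 104 nt in the upper tercile of transcript length (728 transcripts) and 95.8 nt in the lower (726 transcripts).

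The 10 most-read transcripts took 7.76% of all DMSO reads. Eef1a1, the elongation factor that brings tRNAs to the ribosome, led with 11607 reads and library medians of 109 and 108 nt at 24 h against 99.7 and 105 nt at 48 h. Rplp1, a ribosomal stalk protein, followed with 9535 reads and medians of 94.6, 95.4, 87.2 and 91.4 nt in replicates 21, 23, 24 and 25. Both transcripts had shorter tails in each 48 h library than in either 24 h library. Next were Rps2-ps10, annotated as a copy of the ribosomal protein gene Rps2 whose reads cannot be separated from Rps2 with certainty (98.8 nt over the 4 libraries), the glycolytic enzyme Gapdh (107 nt) and the proline isomerase Ppia (95.1 nt). The other 5 encode ribosomal proteins, Rplp0 (85.03 nt), Rpl32 (82.96 nt), Rps12 (92.9 nt), Rpl23a (94.2 nt) and Rpl23 (92.7 nt), all below the typical transcript.

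Among the 1318 transcripts with at least 100 DMSO reads, the 8 longest medians were those of Canx, the chaperone calnexin (143 nt, 143 reads), 2 transcripts of the splicing regulator Hnrnph1 (142 and 138 nt), the adaptor protein Ywhaz (139 nt), an Rpl12 transcript annotated as a target of nonsense-mediated decay (137 nt), the mRNA export factor Alyref (136 nt), D10Wsu102e (136 nt) and the RNA-binding protein Hnrnpk (136 nt). Canx had library medians of 145 and 135 nt at 24 h against 142 and 145 nt at 48 h, so the groups overlapped. The 8 shortest were Vim, the intermediate filament vimentin (70.9 nt, 203 reads), Mrpl2 and Timm23, which serve the mitochondrial ribosome and protein import (71.5 and 71.6 nt), Snf8 of the ESCRT sorting machinery (72.9 nt), Bccip (73.3 nt), Gm12184 (73.6 nt), an Rps19 transcript (73.7 nt) and Gm10260 (73.8 nt). Vim had library medians of 82.5 and 64.01 nt at 24 h against 72.6 and 70.7 nt at 48 h, so its groups overlapped as well. Tails under 30 nt made up 9.36% of Vim reads and 11.3% of Mrpl2 reads, and no read of Canx or of the longest Hnrnph1 transcript.

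A tail is added a short way downstream of a polyadenylation signal, usually AATAAA or ATTAAA in the DNA. The last 30 bases of the annotated transcript are given for 2 of the longest-tailed and 6 of the shortest-tailed transcripts, chosen from those at which at least 85% of reads ended within 20 nt of the annotated end, with either signal in capitals (GENCODE vM21, GRCm38, transcript strand).
Hnrnph1, longest tails, chr11:50386498-50386527, plus strand: cttgtcaAATAAAtcttccttttaaaagct
Rpl12, longest tails, chr2:32964014-32964043, plus strand: ttccAATAAAagactatctgataaccagtg
Vim, shortest tails, chr2:13582797-13582826, plus strand: gttactgcttcAATAAAtcttcaaaaatac
Mrpl2, shortest tails, chr17:46650103-46650132, plus strand: tggactctAATAAAatgtctcttgttttta
Rps19, shortest tails, chr7:24889777-24889806, plus strand: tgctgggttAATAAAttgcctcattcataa
Gm12184, shortest tails, chr11:48825346-48825375, minus strand: taaagcttattttcATTAAAaaaaaaaaaa
Snf8, shortest tails, chr11:96047401-96047430, plus strand: tgtttataaaaaaaagttcattccaagtta
Gm10260, shortest tails, chr13:97760072-97760101, minus strand: gtttatatacctatggaaaaaaaaaagaaa
Snf8 and Gm10260 held neither signal in these bases, but Gm10260 and Gm12184 both held AATAAA within their last 40 bases. Gm12184 ends in a run of adenosines that is encoded in the genome, and the ATTAAA in capitals overlaps that run. Of 2172 transcripts with a sequence, 64.5% held AATAAA in their last 40 bases (transcript strand), 14.3% held ATTAAA but not AATAAA, and 21.2% held neither; the median of their median tails was 100.3, 100.4 and 99.5 nt. Over all DMSO reads of the 2194 transcripts, 58.4% ended within 20 nt of the annotated end.

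Functional groups differed in tail length. Reads of the 82 ribosomal protein genes had median tails of 94.9 and 95.7 nt at 24 h against 89.0 and 93.7 nt at 48 h, and their transcripts took 29.9% to 31.3% of the reads. Proteasome subunits were as short, at 95, 91.6, 91.3 and 90.4 nt in replicates 21, 23, 24 and 25. Pluripotency genes lay at 111, 115, 108 and 110 nt, above the library medians throughout, and Sox2 (123 nt over the 4 libraries) was the longest of the 11 pluripotency transcripts with at least 100 reads while Gdf3, a growth factor, was the shortest (92.5 nt). Sterol and fatty acid synthesis genes lay at 112, 114, 110 and 112 nt, with Scd2, a desaturase, longest at 133 nt. Glycolytic genes lay at 108, 111, 106 and 105 nt. Within the ribosomal proteins, 133 transcripts with at least 100 reads had a median of 94.3 nt. They spanned 73.7 nt (an Rps19 transcript with 209 reads) to 137 nt (an Rpl12 transcript with 111 reads). The most-read transcripts of these genes had 87.7 nt (Rps19, 3879 reads) and 99.4 nt (Rpl12, 3142 reads). The level of each group is a median over pooled reads, so its most-read members weigh most.

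**Figure D2:**
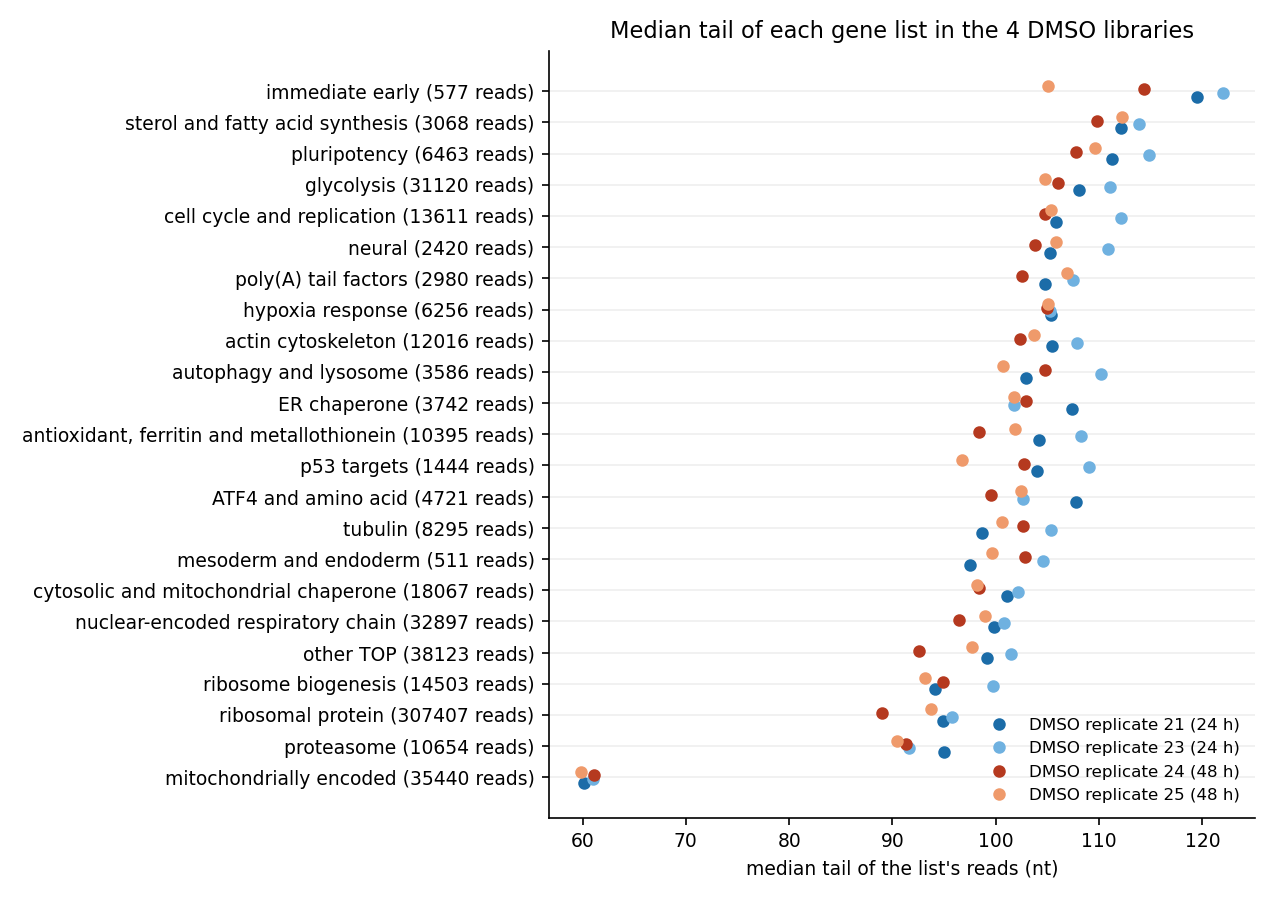
Median tail (nt, horizontal axis) of the pooled reads of each gene list with at least 400 DMSO reads, in each of the 4 DMSO libraries, blue at 24 h and red at 48 h; the number of reads is beside each name. Mitochondrially encoded transcripts lie near 60 nt, ribosomal proteins and proteasome subunits near 90 to 96 nt, and pluripotency and sterol synthesis genes above 107 nt, with the 48 h points mostly to the left.

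The next question was what changed in the DMSO cultures from 24 h to 48 h. The library median of tail length was lower in both 48 h libraries than in either 24 h library. It was 101.6 ± 1.29 nt (SD, n = 2) at 24 h and 98.03 ± 1.79 nt (n = 2) at 48 h, a difference of -3.56 nt (two-sided exact permutation test, p = 0.333, the smallest that 2 against 2 libraries can give). Without replicate 24 the difference was -2.30 nt. Tails of 30 to 90 nt made up 38.7 ± 1.16% of reads at 24 h and 41.3 ± 1.17% at 48 h (SD, n = 2 each), again without overlap (exact permutation test, p = 0.333). The share below 30 nt was 2.53 ± 0.268% at 24 h and 2.72 ± 0.212% at 48 h, and here the groups overlapped (exact permutation test, p = 0.667).

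The difference lay in the body of the distribution and not in its long end. The mean lower quartile was 68.7 nt at 24 h and 65.6 nt at 48 h, and the mean upper quartile 138.7 and 136.04 nt, each without overlap between the groups. The 95 percent point went the other way, from 205.3 to 206.3 nt, also without overlap. Tails over 200 nt made up 5.65% and 5.71% of reads on average, with overlapping groups. Mitochondrially encoded transcripts from the same libraries differed by -0.1 nt, with a mean median of 60.6 ± 0.601 nt at 24 h and 60.5 ± 0.856 nt at 48 h (SD, n = 2 each, exact permutation test, p = 1). This pooled value also depends on the mix of messages: 8 of the 9 messages with values had a higher mean of library medians at 48 h, from +0.115 nt for mt-Co1 to +3.59 nt for mt-Cytb, and mt-Nd2 differed by -0.11 nt. Repeat-derived transcripts stood at 102 ± 2.23 and 101 ± 3.91 nt, and their groups overlapped.

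Within each run the DMSO libraries kept their order. At 24 h replicate 21 had medians of 101.8, 99.3 and 100.6 nt in the 3 runs and replicate 23 had 103.5, 101.2 and 102.7 nt. In the 2 runs at 48 h replicate 24 had 97.9 and 95.9 nt, with 100.6 and 98.4 nt in replicate 25. The runs of 1 library thus differed by 2.03 to 2.51 nt, against 3.56 nt between the times, and 1 run of replicate 25 (100.6 nt) lay above 1 run of replicate 21 (99.3 nt). The MHY libraries of the same runs moved the same way, with medians of 100.1 and 101.5 nt at 24 h against 92.4 and 98.2 nt at 48 h. In the MHY libraries that held most of the spike-in RNAs, the spike with the longest measured tail had a median of 115 nt (44 reads) at 24 h and 114 nt (69 reads) at 48 h, and the 2 others with over 30 reads at both times had 59.9 and 59.6 nt against 62.1 and 57.7 nt.

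Tail differences between the times were small and spread over most well-read transcripts. Of the 149 transcripts with at least 1000 reads, 137 had a lower mean of library medians at 48 h, with a median difference of -4.18 nt and a range from -11.1 to +3.68 nt over all 149. Over all 2194 transcripts 64.2% were lower, with a median difference of -3.47 nt. In the limma fit of mean log2 tail per transcript (1866 transcripts with at least 10 reads in each of the 8 libraries), 0% of transcripts passed an adjusted p of 0.05, and 100 (5.36%) had an unadjusted p under 0.05, 89 lower (4.77%) and 11 higher (0.589%) at 48 h. The median change was -0.04 on the log2 scale, with a typical standard error of 0.14. Both 48 h libraries lay below both 24 h libraries for 25.9% of transcripts and above them for 9.32%.

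Among the most-read transcripts, Rplp1 had the lowest p of the fit, with a difference of -0.09 in mean log2 tail (SE 0.02, 95% interval -0.14 to -0.05, limma adjusted p = 0.247), from 6.56 and 6.56 at 24 h to 6.43 and 6.49 at 48 h. Eef1a1 differed by -0.06 (SE 0.02, interval -0.10 to -0.03, limma adjusted p = 0.872). Pou5f1 differed by -0.09 (SE 0.03, interval -0.15 to -0.03, limma adjusted p = 0.872), from 6.83 and 6.81 to 6.72 and 6.73. In all of these the 48 h libraries lay below the 24 h libraries, yet none passed the test over all transcripts. Without replicate 25, Rplp1 (-0.13, limma adjusted p = 0.0207) and Eef1a1 (-0.11, limma adjusted p = 0.0287) passed, and without replicate 24 Eef1a1 differed by -0.04. The remaining 8 of the 10 most-read transcripts differed by -0.08 (Gapdh) to -0.03 (Rpl32). With single replicates left out, these 8 ranged from -0.13 (Rpl23a, without replicate 25) to +0.01 (Rpl32, without replicate 24). With each library centred on its mean over all transcripts, the differences were smaller, at -0.05 for Rplp1, -0.04 for Gapdh and -0.03 for Eef1a1, and +0.01 for Rpl32. The SEs and intervals above rest on the weights for read number. With no weights the SE was 0.08 for both Rplp1 (-0.10, limma adjusted p = 0.974) and Eef1a1 (-0.07, limma adjusted p = 0.974).

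Tail classes were fitted per transcript as well. In the share of tails of 30 to 90 nt, 0% of the 1866 transcripts passed an adjusted p of 0.05 with limma and 126 (6.75%) had an unadjusted p under 0.05, 111 higher (5.95%) and 15 lower (0.804%) at 48 h. The median change was +0.17 in log2 odds. Gapdh came nearest, with 32.5% and 31.2% of its tails in this class at 24 h and 36.0% and 38.6% at 48 h (limma adjusted p = 0.0700), followed by Eef1a1 at 32.01% and 32.6% against 40.5% and 35.7% (limma adjusted p = 0.0839). Neither pair of groups overlapped. In the share below 30 nt, 0% passed and 97 (5.2%) had an unadjusted p under 0.05, 64 higher (3.43%) and 33 lower (1.77%), with a median change of 0.00. Named after its values were seen, the ribosomal protein transcript Rpl39 had 1.95% and 1.91% of such tails at 24 h and 4.82% and 4.62% at 48 h (limma adjusted p = 0.296).

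**Figure D3:**
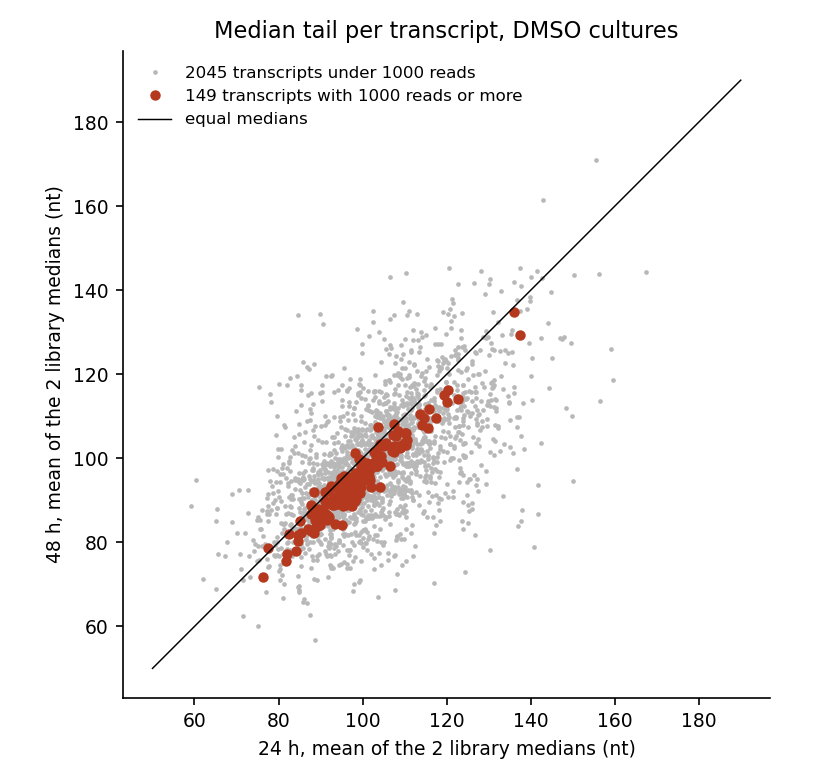
Mean of the 2 library medians of tail length (nt) at 48 h against 24 h for each transcript in DMSO cultures, red with at least 1000 reads (149) and grey with fewer; the line marks equality. Most red points (137 of 149) lie just below the line, and the grey points scatter widely on both sides.

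By group, the median over the pooled reads was lower at 48 h in 22 of the 24 gene lists. Single transcripts could go the other way: 3 of 8 with at least 100 reads were lower in the hypoxia list (median difference +2.04 nt) and 3 of 8 in the sterol and fatty acid synthesis list (+1.98 nt). The 2 groups of libraries did not overlap in 14 lists that were lower and in 1 that was higher, the fibroblast list, which rested on 27 reads. For comparison they did not overlap, lower at 48 h, for 25.9% of all transcripts in mean log2 tail. Most lists hold more reads than a single transcript, and the median over all reads did not overlap either, so these figures are not matched. All 7 transcripts with at least 1000 reads of the other TOP list (translation factors and similar mRNAs) were lower at 48 h, and so were 77 of 84 such ribosomal protein transcripts, beside 137 of all 149 transcripts with that many reads. For the other TOP list the medians were 99.2 and 101 nt at 24 h against 92.6 and 97.7 nt at 48 h. The antioxidant, ferritin and metallothionein list went from 104 and 108 nt to 98.4 and 102 nt. Immediate early genes, short-lived mRNAs of transcription factors, went from 119.5 and 122 nt to 114 and 105 nt on only 577 reads. The hypoxia list differed least among those that did not overlap, at 105.3 and 105.2 nt against 105.0 and 105.0 nt, and tubulin, sterol synthesis, autophagy, endoplasmic reticulum chaperone and ribosome biogenesis lists overlapped between the times.

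No change in read count between the times was called for any transcript. In the limma voom fit of 4104 transcripts, 0% passed an adjusted p of 0.05, and 184 (4.48%) had an unadjusted p under 0.05, 93 higher (2.27%) and 91 lower (2.22%) at 48 h. The limma-trend fit also called 0 transcripts. Libraries of different times differed about as much as libraries of the same time. The chi-square of transcript counts per degree of freedom was 1.29 and 1.34 for the same-time pairs and 1.16 to 1.38 for the pairs across times, all above the 1 expected of sampling noise. Among the 326 transcripts with at least 400 DMSO reads, the log2 fold change ranged from -0.47 to +0.31, and it lay within 0.25 of 0 for 305 (93.6%). The 95% interval excluded a 2-fold change in either direction for each of these 326 transcripts, but for only 2039 of all 4104 (49.7%).

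By function, the largest lists kept similar shares. Ribosomal proteins took 30.7% and 31.03% of reads at 24 h and 29.9% and 31.3% at 48 h, with a median log2 fold change of 0.00 over 191 transcripts. Glycolytic genes took 3.19% and 3.06% against 2.98% and 3.23%, and Gapdh stood at 7867 and 7449 RPM at 24 h against 8480 and 7872 RPM at 48 h. The nuclear-encoded respiratory chain took 3.35% and 3.27% against 3.39% and 3.23%. The groups overlapped for each of these lists. Of the poly(A) tail factors, Pabpc1, the main cytoplasmic poly(A)-binding protein, stood at 811 and 718 RPM at 24 h against 749 and 872 RPM at 48 h, and Nudt21, a subunit of the cleavage complex that selects the polyadenylation site, at 314 and 283 against 253 and 300.1 RPM. For both genes the times overlapped.

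In 8 lists the shares of reads did not overlap between the times, in either direction. Cell cycle and replication genes took 1.37% and 1.47% at 24 h against 1.35% and 1.29% at 48 h, and 5 of their 67 transcripts were lower and 0 higher at an unadjusted p under 0.05, where 2.22% of all transcripts were lower and 2.27% higher. Pluripotency genes took 0.666% and 0.651% against 0.635% and 0.644%. Chaperones of the cytosol and mitochondria took 1.82% and 1.86% against 1.79% and 1.77%, and the antioxidant list 1.11% and 1.08% against 1.01% and 0.990%. These 4 lists were lower at 48 h and the next 4 higher. Autophagy and lysosome genes had 0.355% and 0.345% at 24 h and 0.387% and 0.357% at 48 h, p53 targets 0.1345% and 0.1421% against 0.1615% and 0.1422%, and endoplasmic reticulum chaperones 0.360% and 0.367% against 0.401% and 0.374%. Mesoderm and endoderm genes had 0.0398% and 0.0424% at 24 h and 0.0445% and 0.0704% at 48 h. No transcript of any list was called in these fits, and for comparison the times did not overlap for 15.1% (higher at 48 h) and 15.7% (lower) of all transcripts.

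**Figure D4:**
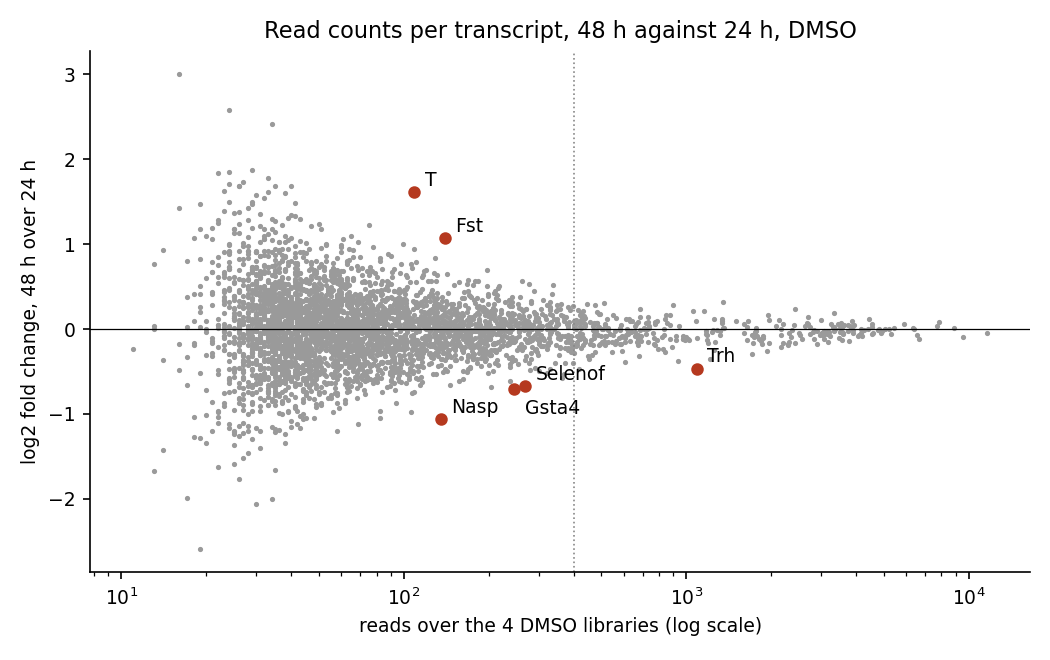
Log2 fold change of read count, 48 h over 24 h in DMSO cultures, against the reads over the 4 DMSO libraries (log axis), 1 point per transcript; the dotted line marks 400 reads and red points mark 6 named transcripts. The spread narrows with depth, and to the right of the line fold changes lie between -0.47 and +0.31.

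A few transcripts stood out from this spread, named here after their values were seen. A transcript of Nasp, a histone chaperone of S phase, had the lowest p (log2 fold change -1.06, SE 0.27, limma adjusted p = 0.826). It stood at 152 and 214 RPM at 24 h against 103 and 78.98 RPM at 48 h. All reads of the Nasp gene stood at 356 and 424 RPM against 257 and 224 RPM (-0.73). Selenof, a selenoprotein of the endoplasmic reticulum, stood at 325 and 341 RPM against 183 and 234 RPM (-0.67, SE 0.20), and the glutathione transferase Gsta4 at 298 and 319 RPM against 211 and 177 RPM (-0.70, SE 0.22). Trh, the thyrotropin-releasing hormone precursor, stood at 1109.7 and 1414 RPM against 1058 and 825 RPM (-0.46, SE 0.14, limma adjusted p = 0.910). Every 48 h library was below both 24 h libraries for these 4 transcripts, and none of the 4 passed the test. In the MHY libraries their log2 fold changes were +0.54 (Nasp), -0.04 (Selenof), -0.75 (Gsta4) and -0.23 (Trh). With a minimum of 1 read in at least 2 libraries Trh was called (-0.51, limma adjusted p = 0.0051), and its log2 fold change was -0.29 without replicate 23 and -0.28 without replicate 25.

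The largest positive fold changes among transcripts with at least 100 DMSO reads were those of 2 developmental genes, and they came mostly from 1 library. T, the mesoderm factor brachyury, stood at 31.4 and 54.4 RPM at 24 h against 70.2 and 231 RPM at 48 h (log2 fold change +1.61, SE 0.46, limma adjusted p = 0.910). Without replicate 25 its log2 fold change was +0.63, and without replicate 24, with the lone 48 h library assumed to vary like the other groups, it was +2.34 (limma adjusted p = 3.2e-05). With a minimum of 1 read in at least 2 libraries T was called (+1.64, limma adjusted p = 0.0495). The transcript of Fst, the activin antagonist follistatin, stood at 78.5 and 76.1 RPM at 24 h against 84.2 and 272 RPM at 48 h (+1.07, SE 0.36, limma adjusted p = 0.936), and its change was +0.11 without replicate 25 and +1.80 without replicate 24. Replicate 25 alone was high in both genes.

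The MHY library that bears the same number, from the same 2 runs, was also high in both. T stood at 17.8, 16.8, 32.1 and 187 RPM in MHY replicates 21, 23, 24 and 25, and all reads of the Fst gene at 57.8, 78.5, 57.8 and 201 RPM. Eomes, another mesoderm and endoderm factor, reached 78.98 and 79.4 RPM in the DMSO and MHY replicates 25, against 11.2 to 50.8 in the other 6 libraries. The summed mesoderm and endoderm markers were 329 and 294 RPM in the replicates numbered 25 and 28.03 to 120 elsewhere, while 5 of the 12 (Sox17, Gata4, Afp, Ttr and Hnf4a) had no read in any DMSO library. Pou5f1 stood at 2862 RPM in DMSO replicate 25, within the range of the 24 h libraries. What the library numbers stand for is not given in the sources used here. More cells expressing these genes and more RNA per cell cannot be told apart in bulk RNA.

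**Figure D5:**
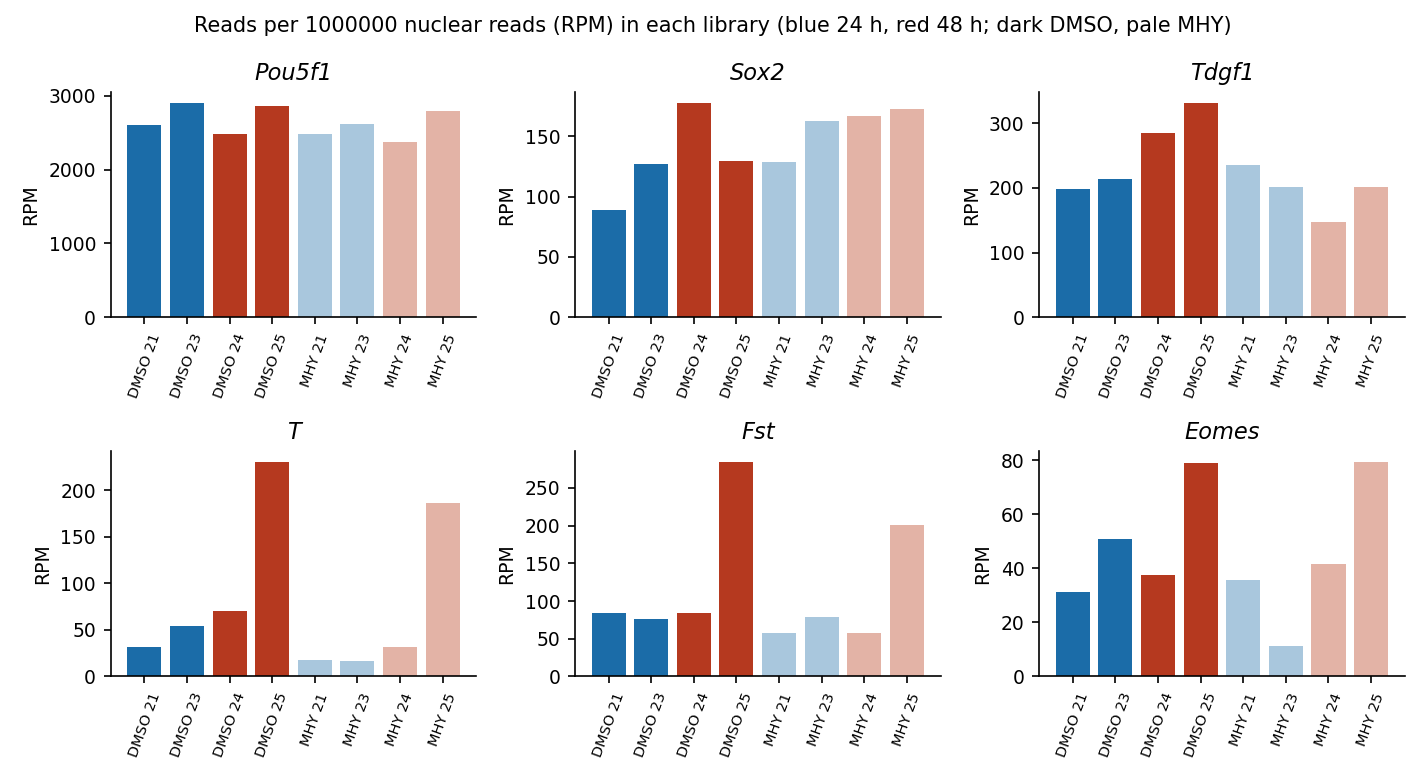
RPM of 3 pluripotency genes (Pou5f1, Sox2, Tdgf1), 2 mesoderm genes (T, Eomes) and Fst in each of the 8 libraries, 1 bar per library, blue at 24 h and red at 48 h, dark for DMSO and pale for MHY. T, Fst and Eomes are highest in both libraries numbered 25, and Pou5f1 lies between 2375 and 2907 RPM in all 8.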

How the data were processed

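The cultures were compared by nanopore direct RNA sequencing of 8 P19 libraries. Per the study's methods and the submitters' processing notes, Guppy served the authors for base calling, minimap2 2.20 for alignment to GENCODE vM17 transcripts and repeats (mm10), Nanopolish for the tail estimate and Deeplexicon for demultiplexing. The deposited table has 1 line per alignment, with a tail length in nt that is not normalized. Its deposited barcode confidence is a fraction and its deposited mapping quality a score. It holds no counts. Its library names could be tied to a group of the labels but not to a labelled replicate.

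Alignments with the tag PASS were kept, 1 per read and transcript (1926118 to nuclear transcripts), with mitochondrial, pseudogene-class, repeat and spike-in entries set apart. Reads were counted per transcript here. Library values were compared with two-sided exact permutation tests (SciPy 1.17.1). Read counts were fitted with limma voom 3.58.1 (R 4.3.3) and median-of-ratios size factors where 2 or more libraries held 10 reads or more. Mean log2(tail + 1) and log2 odds of tail classes (0.5 read added to each side), weighted by read number, were fitted with limma for transcripts with at least 10 reads in each of the 8 libraries. All 8 libraries entered each fit, and p-values were adjusted by Benjamini-Hochberg over all transcripts. Each fit was run on simulated data with little or no spread between libraries beyond read sampling. Those runs do not show how the fits handle a larger spread and are not used as support here.

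The baseline names the 10 most-read transcripts and the 8 longest and 8 shortest median tails; of transcripts called, the largest changes were to be named, and none was called. From each of the 24 gene lists the called or most-read members could be named. The members, lists and rules were chosen with earlier results of these data known. GENCODE vM21 (GRCm38) gave lengths, coordinates and sequences; 99.2% of the 2194 transcripts had an entry. Depth limits what rarer transcripts can show. Alternatives are given in the closing section.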

Additional observations from a re-analysis of the deposited data

Results flagged for a closer look

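The change in read count from 24 h to 48 h differed between DMSO and MHY cultures for 9 transcripts, by the interaction term of the limma voom fit (adjusted p under 0.05, 0.219% of 4104). It was more negative under MHY for 5 glycolytic enzymes with over 1000 RPM in every DMSO library: the log2 difference of the time effects was -1.05 for Pgk1, -0.91 for Ldha, -0.99 for Aldoa, -0.56 for Gapdh and -0.92 for Tpi1. It was -1.42 for Pfkl, another glycolytic enzyme, and -1.99 for Tecr, an enzyme of fatty acid elongation. It was +1.26 for Nop56, of ribosome biogenesis, and +1.12 for Tmsb4x, an actin-binding peptide. In the DMSO cultures themselves the log2 fold changes of these 9 transcripts lay between -0.41 (Nop56) and +0.32 (Pfkl): Pgk1 stood at 2219 and 2084 RPM at 24 h against 2031 and 2429 RPM at 48 h, and Ldha at 2429 and 2316 RPM against 2373 and 2539.9 RPM. Both treatments of a time were sequenced in the same runs. Leaving out 1 library changed the number of such transcripts to between 0 and 43, with 0 without DMSO replicate 23, DMSO replicate 25 or MHY replicate 24, 3 without MHY replicate 21, 4 without MHY replicate 23, 14 without DMSO replicate 24 and 43 without MHY replicate 25. No transcript differed in mean log2 tail by this test (0 of 1866 with limma, 94 at an unadjusted p under 0.05).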

How the results depend on the processing

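Under the alternatives tried (mapping quality, barcode confidence, equal weight per transcript, mean in place of median, other class bounds) the library-level differences kept their direction. In size, the difference in tail was -2.27 nt with means in place of medians, and that in the share below 30 nt was 0.050 percentage points at a barcode confidence of at least 0.9 and 0.040 for tails below 20 nt, against 0.186. With single replicates left out, the difference in median tail ranged from -4.83 to -2.30 nt, that in the share of 30 to 90 nt from 1.73 to 3.38 percentage points, and that in the share below 30 nt from -0.00327 (without DMSO replicate 21) to 0.375. The numbers of called transcripts stayed at 0 except as follows. Read counts gave 14 calls (10 higher, 4 lower, of 21610) with a minimum of 1 read in at least 2 libraries, and 0 to 2 with a replicate left out. Mean log2 tail gave 0 to 3 with a replicate left out (3, all lower, without DMSO replicate 25), and the share of 30 to 90 nt gave 1 (Gapdh, higher) with bounds of 40 to 80 nt and 0 to 10 with a replicate left out, 10 of them without DMSO replicate 25 and 1 without DMSO replicate 24. With a lone library in a group, that library is assumed to vary like the other groups. Of the 10 most-read transcripts only Rpl32 changed sign in mean log2 tail, to 0.0086 with each library centred, and it ranged from -0.092 to 0.0095 with a replicate left out (positive without DMSO replicate 24). The difference of time effects between treatments, with alternatives added after the values were seen, gave 7 transcripts at mapping quality of at least 10, 8 with total-read scaling, 14 with reads summed per gene and 0 to 43 with a replicate left out. The cause of these changes was not tested beyond the smaller number of libraries or the larger number of transcripts fitted. For 24 h against 48 h no paired analysis was possible because the libraries of the 2 times share no number, and the library names cannot be tied to the labels' replicate numbers. DMSO and MHY libraries do share numbers, and with the library number as a replicate block, added after the values were seen, the difference of time effects gave 8 transcripts (7 of the 9, without Tecr and Tmsb4x, and Pkm). Same-numbered libraries deviated together with correlations of 0.033 at 24 h and 0.032 at 48 h over 4104 transcripts, and of 0.028 at 24 h and 0.116 at 48 h over the 649 with at least 400 reads in the 8 libraries.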

Other observations

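Mitochondrially encoded messages differed from each other in tail length by more than the times did. Over the 4 DMSO libraries, mt-Co3, a subunit of cytochrome oxidase, had the longest tails of the 9 with values here, at 68.6 and 69.6 nt at 24 h against 71.1 and 68.1 nt at 48 h. mt-Atp6 and mt-Co1, of the ATP synthase and cytochrome oxidase, were close, with means of 66.8 and 66.9 nt at 24 h. The shortest were the complex I messages mt-Nd1, at 47.1 and 47.6 nt at 24 h against 49.1 and 48.8 nt at 48 h, and mt-Nd2, at 47.4 and 48.5 nt against 48.0 and 47.7 nt. The message with the greatest difference between the times was mt-Cytb, at 55.6 and 57.0 nt at 24 h against 60.2 and 59.5 nt at 48 h, with both 48 h libraries above both 24 h libraries.

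In the annotated classes of nuclear transcripts, protein-coding transcripts (2130) had a median of 100.2 nt and transcripts annotated as targets of nonsense-mediated decay (22) 104 nt, and the median differences between the times were -3.48 and -3.84 nt. Processed transcripts (24) had 97.1 nt and retained introns (18) 100.2 nt, with differences of -2.56 and -0.74 nt. Across the 1866 transcripts with both measures, the change in tail and the change in read count had a Spearman correlation of -0.048, and it was +0.085 over the 326 with at least 400 reads, given as a description, since both come from the same reads.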
